A study of Mus musculus with 45 samples.

Results

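A group of 9 transcripts that mark the passage from a dividing cortical progenitor to a young excitatory neuron were followed by SLAM-seq in primary mouse cortical cells. They were picked by name from the 53491 genes of the deposited tables, so that 9 of 53491 are described here: the proneural factors Neurog1 and Neurog2, the intermediate progenitor genes Insm1, Eomes, Btg2 and Gadd45g, and the neuronal basic helix-loop-helix (bHLH) factors Neurod1, Neurod2 and Neurod6. All cells were wild type (WT), came from dissected cortices of E11.5, E14.5 or E16.5 embryos, were trypsinized and were grown as mixed cultures in neural progenitor medium with bFGF, N2 and B27 without vitamin A. Every culture, the 0 h cultures included, had been in 100 µM 4-thiouridine (4sU) for 20 h, and a chase with 5 mM uridine was then sampled at 0, 2, 4, 8 and 12 h. There were 3 pools of embryos per stage (A, B and C), of 7 embryos each at E11.5 and of 2 each at the later stages, and each pool was divided over 5 wells, 1 per chase time, giving 45 libraries in 15 groups of 3. No culture without 4sU was analyzed here. The p-values for stages at 0 h, for half-lives and for label measure the spread between pools. Those along the chase come from a fit that treats the 5 wells of a pool as separate samples. Where the pool is fitted as a block, they measure the spread between wells within a pool.

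In the embryonic cortex, radial glial cells lining the ventricle divide to give either neurons or intermediate progenitors, which divide again near the ventricle before their daughters become neurons. Proneural bHLH factors such as Neurog2 pair with E proteins, bind E-box motifs and switch on a cascade that runs through Insm1, Eomes and Neurod1 to Neurod2 and Neurod6 in newborn excitatory neurons. Notch effectors of the Hes family repress the proneural genes, and Id proteins hold E proteins away from them. Because the samples are bulk cultures, fewer cells of a type and less RNA per cell cannot be told apart.

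The libraries held 15.9 M to 43.9 M reads recovered from the deposited cpm values (reads scaled to the size of the library). Markers of dorsal telencephalon were present at every stage, the summed level of 4 of them being 890 ± 54.1 cpm at E11.5, 449 ± 26.8 cpm at E14.5 and 372 ± 16.95 cpm at E16.5 (mean ± SD, n = 3 pools). Over the same stages the summed level of 10 radial glia markers fell from 10840 ± 224 to 4440 ± 354 and 1695 ± 75.9 cpm, while that of 10 markers of postmitotic cortical neurons rose from 3382 ± 337 to 6367 ± 298 and 9633 ± 269 cpm. Genes of other cells moved with stage as well, as summed levels in the 0 h libraries show. Of the 4 blood genes tested, 4 were called lower in the step from E11.5 to E14.5, as were 4 of 5 genes of meninges and mural cells. The 5 blood genes summed to 1647 to 3672 cpm at E11.5 against 40.1 to 58.2 and 25.6 to 58.9 cpm later, and the 5 genes of meninges and mural cells to 421 to 642 cpm against 15.3 to 18.8 and 11.8 to 28.8 cpm. The ventral telencephalon and interneuron list summed to 39.4 to 45.1, 35.1 to 38.2 and 201 to 208 cpm, with Nkx2-1 at 0 at E11.5, the oligodendrocyte precursor list to 44.0 to 51.2, 120 to 184 and 140 to 162 cpm, and the Cajal-Retzius list to 67.9 to 109, 156 to 171 and 113 to 217 cpm. The rise of these last sums at E14.5 came from 1 gene each, Olig2 (34.3 to 139 cpm) and Reln (53.0 to 150.1 cpm), while 3 of 4 and 2 of 5 genes of the lists were called lower there. Endothelial genes at 0 h stayed at or below 4.07 cpm and microglial genes at or below 11.6 cpm in sum. The part of these cells in the stage differences below was not tested. Leaving the listed blood, meningeal, endothelial and microglial genes out before normalization left the number of members called unchanged in all 3 stage comparisons. This alternative was chosen after seeing the data. It took out only the listed genes and kept all other RNA of these cells, so it cannot show their part.

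Neurog1 (chr13:56250478-56252163, minus strand, 1 exon, mm10) was the scarcest of the 9 genes and was all but gone by E16.5. At 0 h of chase it was measured at 2.62, 2.74 and 1.81 cpm in pools A, B and C at E11.5, at 4.14, 2.54 and 1.99 cpm at E14.5 and at 0.08, 0.26 and 0.08 cpm at E16.5, the last from 2, 11 and 3 reads. The first 2 stages overlapped, whereas every E16.5 pool lay below every earlier one. On the log2 scale the level changed by 0.30 ± 0.43 (SE; adjusted p = 0.605, edgeR quasi-likelihood test with Benjamini-Hochberg adjustment) between E11.5 and E14.5 and by -4.40 ± 0.51 (adjusted p = 1.4e-05) in the next interval.

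Neurog2 (chr3:127633135-127635631, plus strand, 2 exons), the main proneural factor of the dorsal telencephalon, was highest at E14.5. It stood at 19.4, 19.2 and 19.0 cpm in the E11.5 pools, at 45.005, 40.1 and 39.6 cpm at E14.5 and at 19.1, 15.9 and 15.9 cpm at E16.5. All E14.5 pools were above all others, and the ranges of E11.5 and E16.5 overlapped. The rise of 1.25 ± 0.09 (log2, adjusted p = 1.7e-07, edgeR) and the fall of -1.34 ± 0.09 (adjusted p = 2.1e-07) were near mirror images, and E16.5 differed from E11.5 by -0.09 ± 0.09 (adjusted p = 0.381).

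Among the intermediate progenitor genes, Insm1 (chr2:146221921-146225020, plus strand, 1 exon), which encodes a zinc-finger factor needed to form basal progenitors, peaked at E14.5 too. Its levels were 96.8, 135 and 71.2 cpm at E11.5, 161, 143 and 133 cpm at E14.5 and 107, 103 and 90.4 cpm at E16.5. Pools at E11.5 were the most scattered, and pool B there exceeded pool C of E14.5. Insm1 rose by 0.74 ± 0.15 (log2, adjusted p = 0.0014, edgeR) and then fell by 0.72 ± 0.15 on the log2 scale (adjusted p = 0.0018). Both differences missed the threshold with limma on log2(cpm + 0.1), where they were 0.57 (adjusted p = 0.0530) and -0.54 (adjusted p = 0.0637).

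Eomes (chr9:118478212-118486132, plus strand, 6 exons in the transcript used), the T-box factor also called Tbr2 that defines intermediate progenitors, declined at each step instead. It was measured at 52.1, 53.6 and 57.6 cpm at E11.5, at 39.2, 36.3 and 31.7 cpm at E14.5 and at 27.5, 28.8 and 21.4 cpm at E16.5, with no overlap between any stages. The changes were -0.51 ± 0.11 (log2, adjusted p = 0.0019, edgeR) and -0.48 ± 0.11 (adjusted p = 0.0029), and the whole span of -0.99 ± 0.11 (adjusted p = 4.3e-06) lay just inside the limit of a log2 change of 1. Eomes shares its locus with the annotated gene Gm33460.

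Btg2 (chr1:134075170-134079120, minus strand, 2 exons), an antiproliferative gene also called Tis21 that is switched on in neurogenic divisions, fell mainly between the later stages. Its pools read 108, 99.1 and 97.3 cpm at E11.5, 81.6, 81.8 and 86.3 cpm at E14.5 and 35.9, 37.0 and 32.3 cpm at E16.5. The second step was -1.22 ± 0.07 (log2, adjusted p = 8.0e-08, edgeR) and the first -0.23 ± 0.07 (adjusted p = 0.0157), which was lost without E11.5 pool A (-0.18, adjusted p = 0.0741) or E14.5 pool A (-0.22, adjusted p = 0.0529). Gadd45g (chr13:51846678-51848468, plus strand, 4 exons in the transcript used), a growth-arrest gene of the Gadd45 family, was measured at 27.0, 25.8 and 15.5 cpm at E11.5, at 16.03, 18.8 and 17.4 cpm at E14.5 and at 12.0, 10.4 and 9.61 cpm at E16.5. Pool C of E11.5 lay below all 3 pools of E14.5, and every E16.5 pool was below every other pool. The first difference, -0.30 ± 0.16 (adjusted p = 0.152), did not pass the test with all pools but did without E11.5 pool C (-0.50, adjusted p = 0.0036), and the second, -0.72 ± 0.17 (adjusted p = 0.0030), did.

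The neuronal bHLH factors went the other way. Neurod1 (chr2:79452521-79456751, minus strand, 2 exons), expressed as intermediate progenitors turn into neurons, was measured at 51.4, 48.6 and 56.0 cpm at E11.5, at 70.6, 62.6 and 58.1 cpm at E14.5 and at 87.9, 105 and 94.6 cpm at E16.5, without overlap. It rose by 0.32 ± 0.09 (log2, adjusted p = 0.0109, edgeR) and by 0.60 ± 0.09 (adjusted p = 1.5e-04), and the first of these was lost without E14.5 pool A (0.24, adjusted p = 0.0597). Its locus overlaps Cerkl and Gm26755.

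Neurod2 (chr11:98325415-98329648, minus strand, 2 exons), a factor of postmitotic excitatory neurons, stood at 115, 126 and 111 cpm at E11.5, at 299.9, 279 and 226 cpm at E14.5 and at 419, 398 and 377 cpm at E16.5. Every pool was above every pool of the stage before. The steps were 1.23 ± 0.09 (log2, adjusted p = 2.8e-07, edgeR) and 0.60 ± 0.09 (adjusted p = 1.6e-04).

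Neurod6 (chr6:55677822-55681263, minus strand, 2 exons), a factor of the same postmitotic lineage, made the largest rise of the 9 genes. It read 97.2, 105 and 98.6 cpm at E11.5, 939.8, 770.5 and 863 cpm at E14.5 and 716, 752 and 758 cpm at E16.5. The first step was 3.15 ± 0.08 (log2, adjusted p = 2.4e-11, edgeR). The second was slight, -0.20 ± 0.07 (adjusted p = 0.0405), and missed the threshold under 13 alternatives, among them the 12 h libraries (0.19, adjusted p = 0.0725), DESeq2 (-0.17, adjusted p = 0.0775) and the omission of E14.5 pool A (-0.12, adjusted p = 0.185), E14.5 pool C (-0.20, adjusted p = 0.0644), E16.5 pool A (-0.14, adjusted p = 0.248), E16.5 pool B (-0.21, adjusted p = 0.0685) or E16.5 pool C (-0.21, adjusted p = 0.0783).

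**Figure D1:**
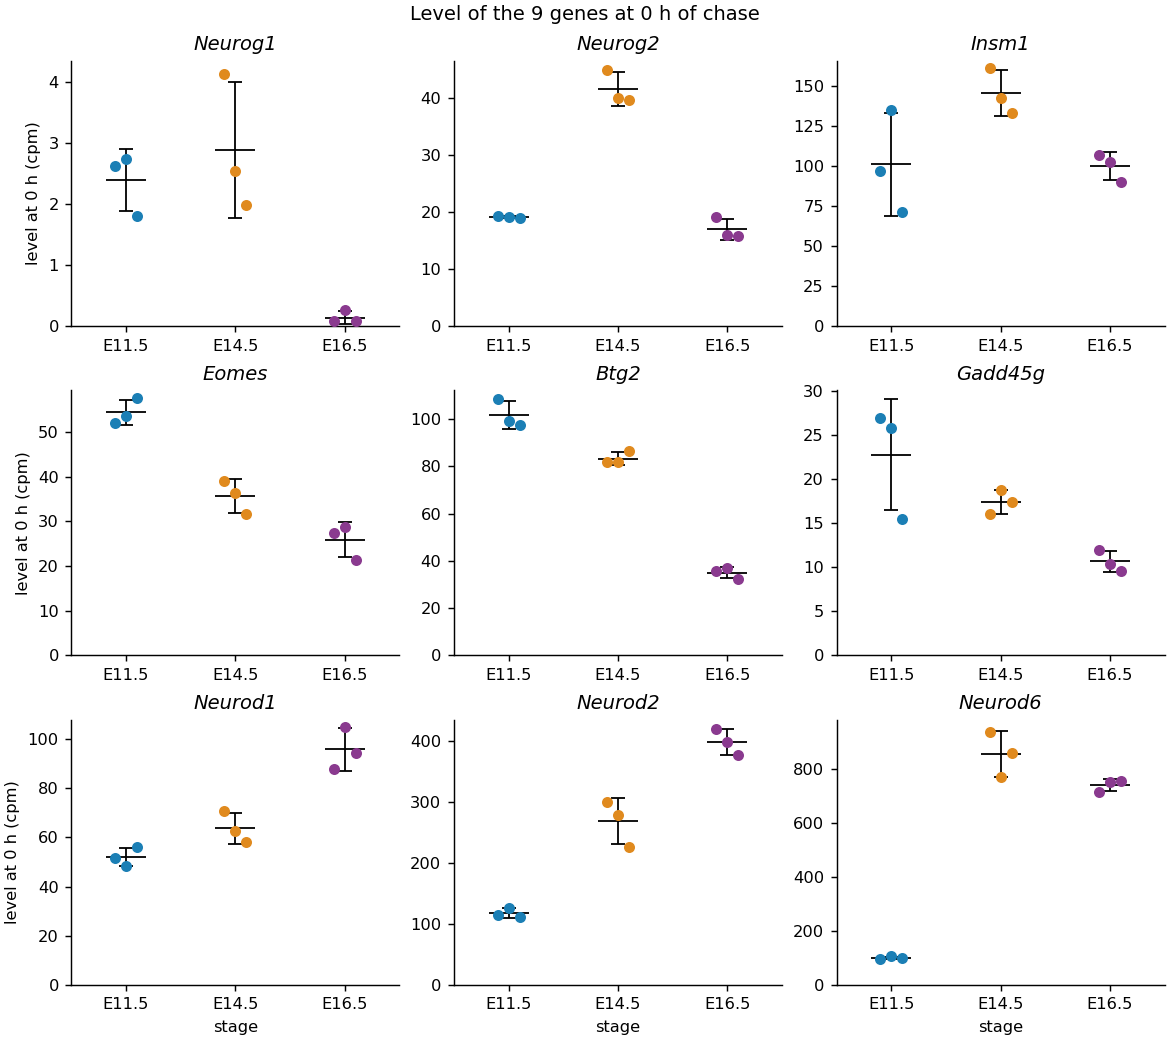
Level at 0 h of chase (y axis, cpm, from 0) by stage (x axis) for each of the 9 genes, with 1 point per pool and a black bar and whiskers for the mean ± SD of 3 pools. Neurog2 and Insm1 are highest at E14.5, Eomes and Btg2 fall with stage, Neurod1 and Neurod2 rise with stage, and Neurod6 goes from 97.2 to 105 cpm at E11.5 to over 700 cpm later.

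Because the 3 Neurod genes rose together over E11.5 to E16.5, their promoter windows from RefSeq (GRCm38.p6, 250 bases before to 50 bases after the annotated start) were searched for the E-box CANNTG, the motif class that bHLH dimers bind and which reads the same on both strands. The windows are shown 5′ to 3′ on the gene's strand with E-boxes in capitals:

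Neurod1, chr2:79456587-79456886, minus strand: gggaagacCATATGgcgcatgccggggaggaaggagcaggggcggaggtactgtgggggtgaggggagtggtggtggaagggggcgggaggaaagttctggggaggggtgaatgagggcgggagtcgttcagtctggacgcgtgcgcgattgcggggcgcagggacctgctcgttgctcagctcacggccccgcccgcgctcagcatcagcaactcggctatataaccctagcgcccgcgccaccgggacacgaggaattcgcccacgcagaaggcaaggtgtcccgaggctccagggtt

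Neurod2, chr11:98329596-98329895, minus strand: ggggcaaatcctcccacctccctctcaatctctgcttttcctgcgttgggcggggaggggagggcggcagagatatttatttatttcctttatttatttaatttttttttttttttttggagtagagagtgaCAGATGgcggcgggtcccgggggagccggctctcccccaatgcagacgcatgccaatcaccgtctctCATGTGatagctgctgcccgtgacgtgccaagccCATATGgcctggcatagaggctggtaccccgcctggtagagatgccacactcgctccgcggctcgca

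Neurod6, chr6:55681214-55681513, minus strand: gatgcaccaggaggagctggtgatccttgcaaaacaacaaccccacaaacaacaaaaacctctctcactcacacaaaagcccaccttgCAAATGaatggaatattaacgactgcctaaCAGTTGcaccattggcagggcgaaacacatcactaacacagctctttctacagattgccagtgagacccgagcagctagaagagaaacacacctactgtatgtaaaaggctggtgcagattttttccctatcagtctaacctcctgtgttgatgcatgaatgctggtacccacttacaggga

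Neurod1 had 1 E-box, Neurod2 had 3 and Neurod6 had 2. Neurod1 and Neurod2 shared the form CATATG, which 3.91% of 32851 promoter windows of this length held. Neurod2 also had the form CAGATG, held by 17.2% of windows. Of all windows 72.3% held at least 1 E-box of any form and 39.6% at least 2. Windows of 8 of the 9 genes were found, and 5 of these 8 held an E-box. Gadd45g had 3 E-boxes, Neurog1 had 1, and those of Neurog2, Eomes and Btg2 had 0. A match describes the letters and is no evidence of binding.

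Calls among the members were set beside those among all genes. The members had been chosen with earlier results of these data known. At the thresholds given next, they were called only higher at the first step and only lower at the second. Calls needed an adjusted p under 0.05 and a change over 2-fold. From E11.5 to E14.5, 3 of 9 members were called higher (Neurog2, Neurod2 and Neurod6), where 8.14% of the 18408 genes tested were, and 0 lower, where 8.00% were. At an unadjusted p under 0.05 the members with lower levels were Eomes and Btg2, and DESeq2 also called 0 lower at this fold. From E14.5 to E16.5, 3 were called lower (Neurog1, Neurog2 and Btg2), against a background of 5.92%, and 0 higher, against 7.19%; Neurod1 and Neurod2 were higher at an unadjusted p under 0.05, and DESeq2 called 0 higher too. Over the whole span 2 were called higher (Neurod2 and Neurod6; background 14.7%) and 3 lower (Neurog1, Btg2 and Gadd45g; background 14.6%). Gadd45g, at -1.02 ± 0.17, and Eomes, at -0.99 ± 0.11, lay on either side of the fold limit, and the whole-span count ran from 4 to 6 when single pools were left out. It was 3 where more than 100 covered Ts were required in each library, since Neurog1 did not pass that filter and Gadd45g was then at -1.00. By adjusted p alone 7, 9 and 7 of 9 members were called in the 3 comparisons, against 48.6%, 49.5% and 64.4% of all genes. The median log2 change of the members was 0.32, -0.72 and -0.09, and that of all genes -0.01, -0.00 and -0.04.

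Some of these differences depended on the chase time at which they were read. The 12 h wells had spent 12 h more in culture and 12 h in uridine, which cannot be told apart here. With the 12 h libraries in place of the 0 h libraries, Insm1 at E16.5 was lower than at E11.5 by -0.78 (log2, adjusted p = 2.5e-05, edgeR) instead of 0.03 ± 0.15 higher (adjusted p = 0.898), and Neurog2 was lower by -1.13 (adjusted p = 9.4e-08) instead of -0.09. The fall of Eomes from E11.5 to E14.5 was then -0.10 (adjusted p = 0.463). Btg2 between these stages turned to 0.11 (adjusted p = 0.205), and Neurod6 between E14.5 and E16.5 turned to 0.19 (adjusted p = 0.0725).

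Per kilobase of exon, the order of the members shifted with stage. At E11.5 Neurod6 led at 46.7 ± 1.96 cpm per kb, followed by Neurod2 (37.4 ± 2.51), Btg2 (37.0 ± 2.16), Insm1 (32.6 ± 10.4), Gadd45g (19.4 ± 5.38) and Neurod1 (19.1 ± 1.38), of which each overlapped the next from Neurod2 on, then by Eomes (13.1 ± 0.68), Neurog2 (8.61 ± 0.09) and Neurog1 (1.42 ± 0.30 cpm per kb). At E14.5 all 9 ranges were apart, in the order Neurod6 (399 ± 39.4), Neurod2 (85.4 ± 12.1), Insm1 (47.0 ± 4.59), Btg2 (30.3 ± 0.97), Neurod1 (23.4 ± 2.34), Neurog2 (18.7 ± 1.34), Gadd45g (14.8 ± 1.18), Eomes (8.60 ± 0.91) and Neurog1 (1.71 ± 0.66 cpm per kb). At E16.5 Neurod6 (345 ± 10.49) and Neurod2 (127 ± 6.62) were followed by Neurod1 (35.1 ± 3.19) and Insm1 (32.3 ± 2.80), which overlapped, then Btg2 (12.8 ± 0.91), then Gadd45g (9.09 ± 1.03) and Neurog2 (7.62 ± 0.83), which overlapped, then Eomes (6.23 ± 0.95) and Neurog1 (0.08 ± 0.06 cpm per kb).

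Ratios within a library, per length, put the members against each other. In stage order, Neurod6 over Neurog2 was 5.42 ± 0.24, 21.4 ± 1.35 and 45.7 ± 5.94. Neurod2 over Neurog2 was 4.34 ± 0.28, 4.57 ± 0.46 and 16.7 ± 1.07, so its first 2 stages overlapped and the third stood apart. Neurod1 over Eomes was 1.45 ± 0.07, 2.72 ± 0.09 and 5.72 ± 0.94, without overlap between stages (n = 3 pools each). Neurod6 over Eomes was 3.57 ± 0.24, 46.7 ± 5.83 and 56.4 ± 10.4, the last pair overlapping, and Neurod6 over Neurod1 rose from 2.46 ± 0.26 to 17.1 ± 1.63 and was 9.86 ± 0.69 at E16.5.

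Genes that work beside the members moved in both directions. Of 15 partners of the proneural program and of intermediate progenitors, 2 were called higher and 4 lower at E14.5 against E11.5, and 2 higher and 2 lower at E16.5 against E14.5. Nhlh1, a bHLH factor of newborn neurons, fell at both steps (-2.36 ± 0.17 and -2.001 ± 0.17 on the log2 scale, adjusted p = 1.3e-07 and 9.0e-07, edgeR). Eya2, a transcriptional coactivator, fell at the first (-2.80 ± 0.26, adjusted p = 1.7e-06), where the somatostatin receptor Sstr2 rose (2.13 ± 0.11, adjusted p = 7.7e-09). At the second step the neuronal POU factor Pou3f2 rose (1.52 ± 0.13, adjusted p = 1.4e-06) and Mfng, a Notch-modifying glycosyltransferase, fell (-1.05 ± 0.09, adjusted p = 1.8e-06).

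Among 10 dimer partners and antagonists of bHLH factors, 2 rose and 6 fell at the first step, the antagonists Id3 (-2.73 ± 0.39, adjusted p = 7.8e-05, edgeR), Hes5 (-1.98 ± 0.10, adjusted p = 5.7e-09) and Id1 (-1.51 ± 0.26, adjusted p = 3.9e-04) most. The genes that rose, named after their values were seen, were the antagonist Id2 (1.48 ± 0.09, adjusted p = 3.6e-08), at 137, 380 and 543 cpm in stage order, and the E protein gene Tcf4 (1.44 ± 0.07, adjusted p = 3.6e-09). The other E protein genes of the list, also named after their values were seen, declined with stage. Tcf3 stood at 377, 181 and 145 cpm and Tcf12 at 360, 287 and 228 cpm. At the second step 1 fell more than 2-fold, Hey1 (-1.35 ± 0.07, adjusted p = 2.3e-08). Of 9 other neural bHLH factors 6 passed the filter on low counts. Of these, 4 rose and 1 fell at the first step, led by Bhlhe22 (2.75 ± 0.07, adjusted p = 2.7e-11), which acts in postmitotic cortical neurons. At the second, 1 fell, Neurod4 (-1.67 ± 0.36, adjusted p = 0.0020), a scarce transcript at 0.18, 0.86 and 0.25 cpm in stage order. For comparison, 1 of 10 radial glia markers rose and 5 fell at the first step and 4 fell at the second, and 6 of 10 neuron markers rose at the first. These lists were drawn up with earlier results of these data known, and no list was tested as a set.

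Over the chase itself, no member passed the test at 2 h, and by 12 h Eomes had fallen at every stage, Neurog2 and Insm1 at E16.5 and Neurod1 at E11.5, while Neurod1 rose at E14.5. These tests used all 45 libraries, 16559 genes and the same edgeR test, with a call at an adjusted p under 0.05; Neurog1 did not pass the filter on low counts, which leaves 8 members. At 2 h against 0 h 0 of 8 members were called at E11.5, E14.5 or E16.5, against 3.30%, 4.08% and 3.07% of all genes. At an unadjusted p under 0.05 they were Neurog2 at E11.5, Neurod1 and Neurod6 at E14.5, and Btg2, Neurod1 and Neurod6 at E16.5, and DESeq2 called 0. Markers of other cells moved over 12 h as well. At E11.5 microglial genes fell (3 of 4 called, summed level 5.40 to 8.13 cpm at 0 h and 2.14 to 3.21 cpm at 12 h) and genes of the ventral telencephalon and interneurons rose (4 of 5, 39.4 to 45.1 and 67.2 to 72.5 cpm). Genes of oligodendrocyte precursors were called higher at each stage (3, 4 and 3 of 4), at E14.5 from 120 to 184 cpm to 249 to 313 cpm. Their part in the members' changes was not tested. Since the 5 wells of a letter came from 1 pool, the pool was also fitted as a replicate block. With this block 2, 2 and 3 members were called at 2 h, against 8.67%, 11.6% and 9.71% of all genes: Eomes (-0.21, adjusted p = 0.0213) and Neurog2 (-0.22, adjusted p = 0.0244) fell at E11.5, Neurod1 (0.31, adjusted p = 0.0071) and Neurod6 (0.23, adjusted p = 0.0083) rose at E14.5, and at E16.5 Neurod1 (0.25, adjusted p = 0.0341) and Neurod6 (0.19, adjusted p = 0.0343) rose while Btg2 fell (-0.20, adjusted p = 0.0127).

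Eomes fell by 12 h at every stage. At E11.5 it went from 52.1, 53.6 and 57.6 cpm to 27.5, 24.5 and 21.2 cpm, at E14.5 from 39.2, 36.3 and 31.7 cpm to 26.6, 24.4 and 20.5 cpm, and at E16.5 from 27.5, 28.8 and 21.4 cpm to 19.5, 20.4 and 16.3 cpm. Every pool fell, and no 12 h well reached the lowest 0 h well of its stage. The mean level at 12 h was 44.8%, 66.7% and 72.3% of that at 0 h, and the log2 changes were -0.98 ± 0.14 (adjusted p = 9.0e-07, edgeR), -0.58 ± 0.13 (adjusted p = 0.0016) and -0.41 ± 0.13 (adjusted p = 0.0249). The last of these was lost without E16.5 pool A (adjusted p = 0.0922) or pool B (adjusted p = 0.151). With the pool as a replicate block all 3 passed (adjusted p = 5.1e-15, 2.0e-09 and 2.0e-06).

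Neurog2 fell by 12 h at E16.5, the single member change over 2-fold in this fit. Its pools went from 19.1, 15.9 and 15.9 cpm to 8.35, 7.18 and 8.81 cpm there, and were well apart. At E14.5 they read 42.3, 39.1 and 37.8 cpm at 12 h and at E11.5 19.6, 15.4 and 15.1 cpm, both overlapping 0 h. The change was -1.04 ± 0.09 (log2, adjusted p = 4.1e-10, edgeR) at E16.5, -0.07 ± 0.09 (adjusted p = 0.638) at E14.5 and -0.00 ± 0.09 (adjusted p = 0.993) at E11.5.

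Insm1 fell at E16.5 as well, from 107, 103 and 90.4 cpm to 63.1, 68.1 and 67.3 cpm, so that all wells at 12 h were below all at 0 h. The change there was -0.53 ± 0.14 (adjusted p = 0.0060, edgeR), and it was lost without E16.5 pool A (adjusted p = 0.0812) or pool B (adjusted p = 0.0730). At E11.5 its wells at 12 h held 124, 123 and 77.7 cpm and at E14.5 148, 110.1 and 125 cpm, overlapping 0 h at both stages. Those changes were 0.27 ± 0.14 (adjusted p = 0.161) and -0.21 ± 0.14 (adjusted p = 0.314), and with the pool as a replicate block both passed the threshold, in opposite directions (0.28, adjusted p = 0.0028, and -0.21, adjusted p = 0.0306).

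Neurod1 changed in opposite directions at the first 2 stages. It went from 51.4, 48.6 and 56.0 cpm to 33.1, 33.7 and 39.3 cpm at E11.5, and from 70.6, 62.6 and 58.1 cpm to 95.2, 71.4 and 75.7 cpm at E14.5, with no overlap of 0 h and 12 h at either. It fell by 0.35 ± 0.12 on the log2 scale at E11.5 (adjusted p = 0.0247, edgeR) and rose by 0.37 ± 0.12 at E14.5 (adjusted p = 0.0239), and at E16.5 it was higher by 0.17 ± 0.12 (adjusted p = 0.340). Without E11.5 pool A (adjusted p = 0.169) or B (adjusted p = 0.137) the fall was lost, and without any 1 of the E14.5 pools the rise was lost (adjusted p = 0.111, 0.0555 and 0.107 without A, B and C). With the pool as a replicate block both passed (adjusted p = 3.3e-04 each).

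At 12 h against 0 h, 2 of 8 members were thus called lower at E11.5, against 9.80% of all genes, 1 lower and 1 higher at E14.5, against 21.6% called in either direction, and 3 lower at E16.5, against 8.34%. With the pool as a replicate block the counts were 4, 4 and 5, where the shares of all genes also rose, to 37.9%, 34.1% and 33.2% in either direction: Btg2 (-0.21, adjusted p = 0.0014) and Insm1 joined at E11.5, Insm1 and Neurod6 (-0.19, adjusted p = 0.0092) at E14.5, and Gadd45g (-0.46, adjusted p = 0.0291) and Neurod6 (0.22, adjusted p = 0.0040) at E16.5. Btg2 at E11.5 was also called without E16.5 pool B (-0.21, adjusted p = 0.0232) or C (-0.21, adjusted p = 0.0297), and Gadd45g at E16.5 without E11.5 pool C (-0.45, adjusted p = 0.0463). Neurod2 was called at no stage with either fit, and its changes lay between -0.11 and -0.04. The members' median change was -0.15, -0.09 and -0.23, beside 0.03, 0.00 and 0.03 over all genes.

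Scaling mattered at E11.5. On log2(cpm + 1) without TMM factors the median of all genes there was -0.15 instead of 0.03, and the calls split into 1030 higher and 5413 lower instead of 2882 and 1622; at E16.5 they split into 1347 and 1810 instead of 2065 and 1381. Fold changes with TMM factors are thus relative to the bulk of genes, and percentages of the 0 h cpm are not. The cpm of all genes summed to 878313.5, 874642.4 and 828747.1 in the 12 h wells of E11.5 pools A, B and C. In their 0 h wells the sums were 915046.2, 920595.2 and 907650.5, so percentages of the 0 h cpm at E11.5 are lowered by this difference. Its part in the shift of the median was not tested. On the cpm scale Btg2 (-0.42, adjusted p = 4.0e-04, limma) and Neurod2 (-0.32, adjusted p = 0.0296) were also called lower at E11.5, and Neurod6, at 0.15 with TMM, stood at -0.09 (adjusted p = 0.463).

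Neurog1, too low for this fit, went from 4.14, 2.54 and 1.99 cpm to 0.86, 0.68 and 0.75 cpm over 12 h at E14.5, 18 to 28 reads per well at the end. In a fit without the filter this was a change of -1.96 ± 0.50 (adjusted p = 0.0060, edgeR). At E11.5 its wells at 12 h held 2.07, 1.75 and 1.58 cpm (-0.22 ± 0.48, adjusted p = 1.0), and at E16.5 they held 0, 0 and 1 read, too few for a fold change. Gadd45g at E14.5 stood out at 4 h, where its wells held 24.5, 30.8 and 26.8 cpm while no other E14.5 well exceeded 19.1 cpm; this difference was noticed in the data and not tested.

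**Figure D2:**
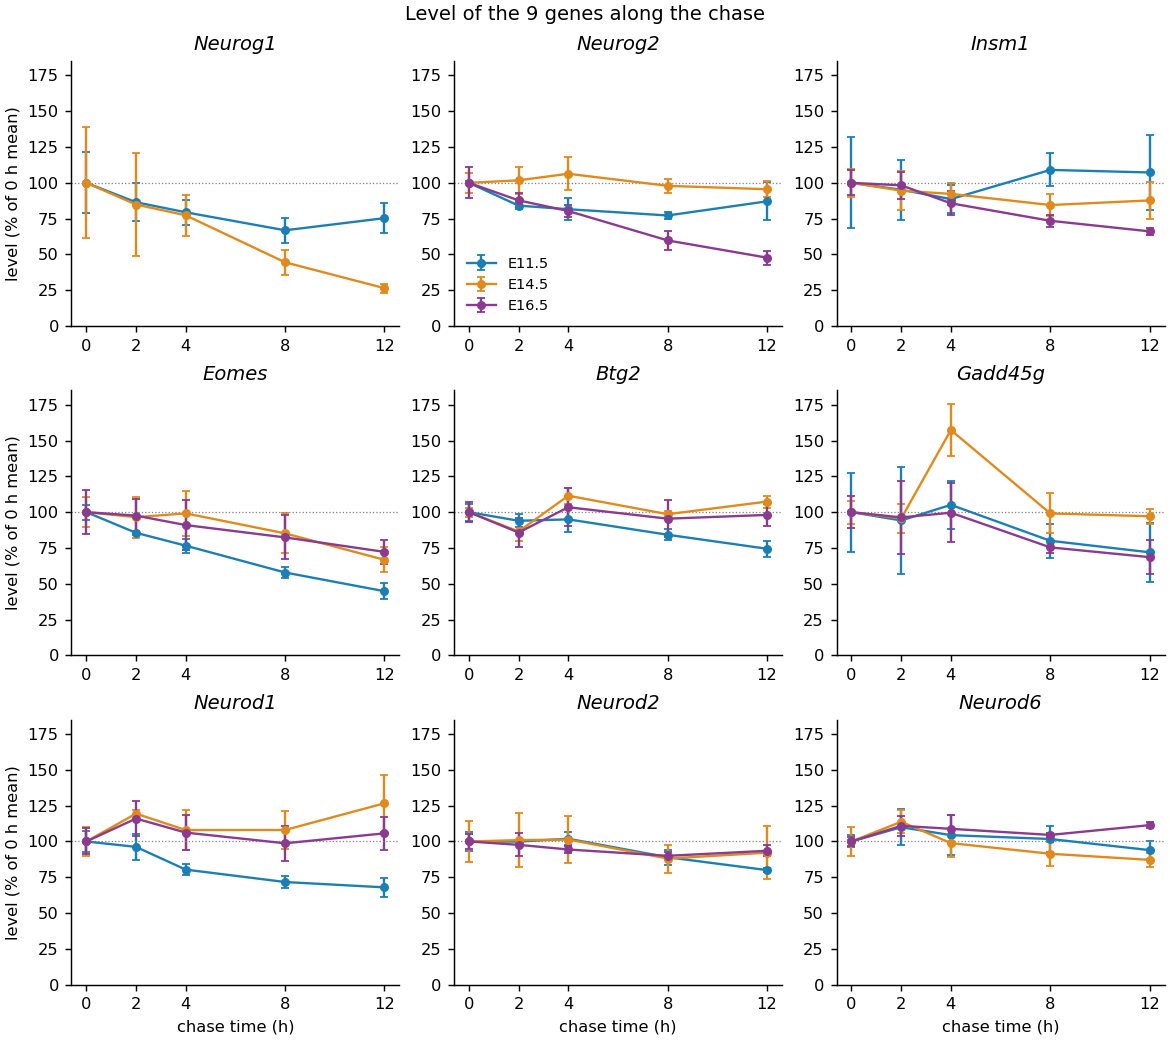
Level along the chase (y axis, percent of the mean of the 0 h wells of that stage; x axis, hours of chase) for each of the 9 genes, as mean ± SD of 3 pools per stage. Eomes falls at all stages, to 44.8% at E11.5, Neurog2 falls to 47.8% at E16.5 while it stays at 87.1% and 95.5% at the earlier stages, and Gadd45g has a bump at 4 h at E14.5. Neurog1 at E16.5 is not drawn because it rests on at most 11 reads per well.

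Whether the 12 h change differed between stages was tested directly, as an interaction in the same fit. This called 3 of 8 members, against 9.61% of all genes: Neurog2 (adjusted p = 2.0e-07, edgeR), Neurod1 (adjusted p = 0.0094) and Insm1 (adjusted p = 0.0194). The Insm1 call was lost without E11.5 pool A (adjusted p = 0.133), E16.5 pool A (adjusted p = 0.0938) or E16.5 pool B (adjusted p = 0.0846), and the Neurod1 call without E11.5 pool A (adjusted p = 0.0721) or B (adjusted p = 0.0696). Neurod6, at an adjusted p of 0.0661, was called without E11.5 pool A (adjusted p = 0.0301). With limma on log2(cpm + 1) Insm1 was lost (adjusted p = 0.0843) and Eomes (adjusted p = 0.0318) and Btg2 (adjusted p = 0.0099) were gained, and with DESeq2 Neurod6 was gained (adjusted p = 0.0378). With the pool as a replicate block 6 members were called, against 23.2% of all genes, adding Eomes (adjusted p = 1.2e-05), Neurod6 (adjusted p = 4.8e-04) and Btg2 (adjusted p = 0.0026); Gadd45g and Neurod2 were not called with either fit.

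Turnover was read from the loss of T-to-C conversions, which mark nucleotides made in the presence of 4sU. Such a half-life describes decay only where the level of the transcript holds steady. By 12 h Eomes was at 44.8%, 66.7% and 72.3% of its 0 h cpm in stage order. At E16.5 Neurog2 was at 47.8% and Insm1 at 66.1%, while Neurod1 was at 126.7% at E14.5. How far such changes moved the half-lives below was not tested. A half-life was kept where all 3 pools passed the filters of the study on coverage, fit and range, and 8 of 9 members passed at all stages, among 9505 genes that did; Neurog1 did not pass. Apart from Neurod2 at E11.5, the mean of every member lay below the stage median, which was 4.43, 4.60 and 3.48 h in stage order over 10858, 10686 and 11850 transcripts. Half-lives here are given for pools A, B and C.

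Btg2 and Gadd45g decayed fastest by their means, although Gadd45g pool C at E16.5 gave 2.27 h. The E11.5 pools gave Btg2 half-lives of 1.72, 1.85 and 1.602 h, the E14.5 pools 1.41, 1.79 and 1.76 h, and the E16.5 pools 1.38, 1.44 and 1.43 h. Its mean of 1.72 ± 0.12 h at E11.5 was undercut by 0.23% of transcripts, 1.65 ± 0.21 h at E14.5 by 0.16% and 1.42 ± 0.03 h at E16.5 by 0.62%. Gadd45g averaged 1.71 ± 0.65, 1.53 ± 0.11 and 1.42 ± 0.76 h (n = 3), with a wide spread at E11.5 and E16.5, and 0.19%, 0.11% and 0.68% of transcripts had shorter means.

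Neurog2, Insm1 and Eomes lay above these on average, and Eomes had the longest mean of the 8 members at E16.5. In pool C of that stage Neurod2 outlasted Eomes (2.27 against 2.05 h), and the Eomes fit of pool B had an R2 of 0.70. With a background rate subtracted as described below, Neurod2 had the longer mean at E16.5 (1.93 against 1.75 h). The E11.5 pools gave Neurog2 half-lives of 3.18, 2.76 and 1.34 h, the E14.5 pools 2.04, 2.596 and 2.07 h, and the E16.5 pools 2.02, 1.81 and 1.43 h. The E11.5 range took in both others, which lay just apart. Insm1 averaged 2.36 ± 0.56, 1.83 ± 0.14 and 1.599 ± 0.12 h. Eomes averaged 3.22 ± 0.81, 2.51 ± 0.26 and 2.58 ± 0.48 h and outlasted Insm1 in 9 of 9 pools.

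Among the neuronal bHLH factors the spread was widest at E11.5 and nearly closed at E16.5. The E11.5 pools gave Neurod2 half-lives of 4.42, 7.42 and 4.18 h, the E14.5 pools 3.81, 3.90 and 3.67 h, and the E16.5 pools 2.24, 2.42 and 2.27 h. For Neurod6 these were 3.36, 4.80 and 3.44 h, then 3.18, 3.34 and 3.56 h, then 1.82, 1.80 and 1.97 h. For Neurod2 no stages overlapped, and for Neurod6 E16.5 lay below the others. Neurod1 averaged 2.43 ± 0.34, 2.70 ± 0.26 and 1.88 ± 0.07 h. Within a pool, Neurod1 decayed faster than Neurod2 in 9 of 9 pools, and so did Neurod6, Neurog2 and Btg2. The mean of Neurod2 at E11.5, 5.34 ± 1.81 h, was the 1 value above a stage median, with 71.0% of transcripts shorter-lived, and at E16.5 its mean of 2.31 ± 0.10 h had 16.2% below it.

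**Figure D3:**
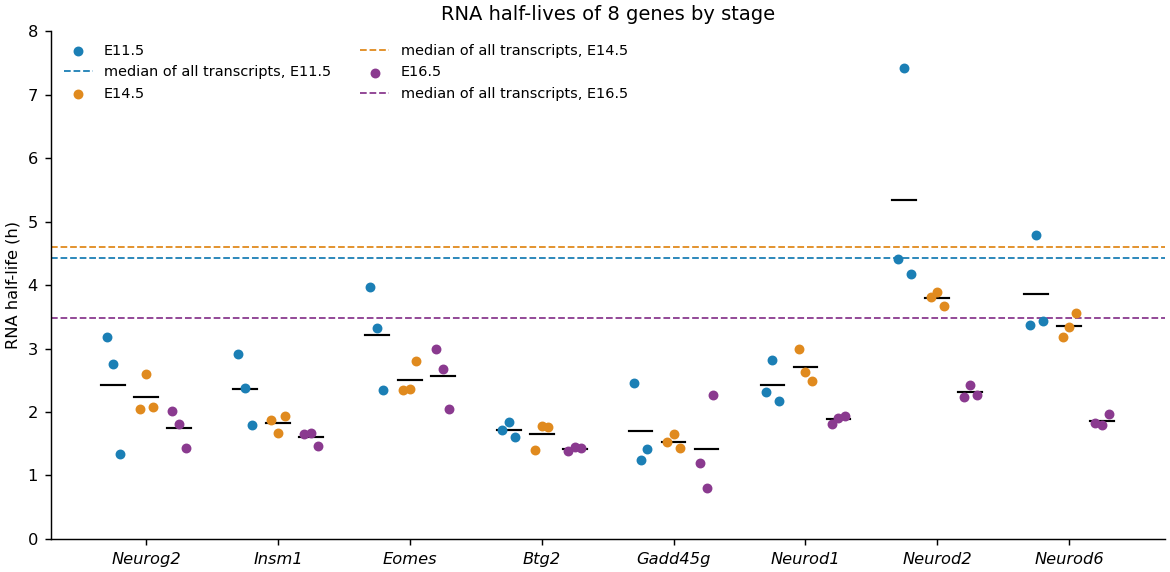
RNA half-life in hours (y axis, from 0) of the 8 genes with a half-life at all stages, with 1 point per pool, black bars for means of 3 pools and dashed lines for the median of all transcripts of each stage. Neurod2 at E11.5, with pools from 4.18 to 7.42 h, is the only group whose mean lies above its median of 4.43 h. The means of Btg2 and Gadd45g are the lowest at every stage, while single pools overlap those of other genes.

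The median half-life over transcripts was shorter at E16.5, so half-lives were compared between stages as z-scores within each pool. On that scale 0 of 8 members were called (limma F-test, adjusted p under 0.05), against 3.15% of the genes tested. Neurod6 (adjusted p = 0.0747) and Neurod2 (adjusted p = 0.103) were under an unadjusted p of 0.05, with z-scores that went from -0.43 to -0.73 and -1.09 for Neurod6 and from 0.28 to -0.52 and -0.83 for Neurod2. Neurod6 passed as log2 half-lives (adjusted p = 0.0455; background 2.59%), with a stricter R2 (adjusted p = 0.0364; background 8.60%) and without E11.5 pool A (adjusted p = 0.0498), and both genes passed in unscaled hours (Neurod6 adjusted p = 0.0323, Neurod2 adjusted p = 0.0479), where 24.2% of all genes did, so that 2 of 8 is near the background. No background rate was subtracted. Subtracting one estimated from well-covered transcripts, a step chosen after seeing the data, shortened half-lives, that of Eomes at E11.5 from 3.22 to 2.10 h. For Neurod2 and Neurod6 the shortening was smaller at E16.5 than at the earlier stages. This did not hold for every member, since Eomes went from 2.51 to 1.75 h at E14.5 and from 2.58 to 1.75 h at E16.5. In stage order Neurod2 went from 5.34, 3.79 and 2.31 h to 3.42, 2.54 and 1.93 h. Neurod6 went from 3.87, 3.36 and 1.87 h to 2.35, 2.18 and 1.59 h. Both genes thus still fell with stage under this setting, but by less.

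The 3′ UTRs of 7 of 9 members held the pentamer ATTTA, the core of AU-rich elements that can speed mRNA decay. Searched on the transcript strand of GENCODE annotation (GRCm38), with overlapping matches counted, Neurog2 had 7, Neurod1 6, Insm1 and Btg2 5 each, Neurog1 2, Eomes and Neurod2 1 each, and Gadd45g and Neurod6 0. That share is near the background, since 74.1% of 8760 transcripts with a half-life and a 3′ UTR held at least 1; the median was 2 over these and the median density 1.46 per kb. Densities were 6.30 per kb in Neurog2, 4.21 in Insm1, 4.16 in Neurod1, 2.78 in Neurog1 and 2.27 in Btg2, against 0.89 in Eomes and 0.56 per kb in Neurod2. One site of each of 5 genes is marked in capitals, to set the dense 3′ UTRs beside that of Neurod2, the longest-lived member at E11.5 and E14.5. The Insm1 window also holds the next site of that gene, left in lower case:

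Neurog2, chr3:127635348-127635376, plus strand: gcttcatgcattATTTAtctcgacctttt

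Insm1, chr2:146224579-146224607, plus strand: tgcacaattgttATTTAttctttatttat

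Btg2, chr1:134077249-134077277, minus strand: aaatgaagagctATTTAtacatgtttttt

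Neurod1, chr2:79453815-79453843, minus strand: agtgatatatgtATTTAttgtcgttactg

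Neurod2, chr11:98325425-98325453, minus strand: cgattaataaatATTTAtgtaaatgagat

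The pentamer count did not order the half-lives of the members: Gadd45g, with 0 matches, was among the fastest, and Neurod1, with 6, outlasted Btg2, with 5, in 9 of 9 pools. Its presence does not show that a site is used. Another shared feature was a compact gene. Of the 9 transcripts, 7 had at most 2 exons (Neurog1, Neurog2, Insm1, Btg2, Neurod1, Neurod2 and Neurod6), as had 6.0% of the 8760 transcripts, whose median was 10 exons.

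**Figure D4:**
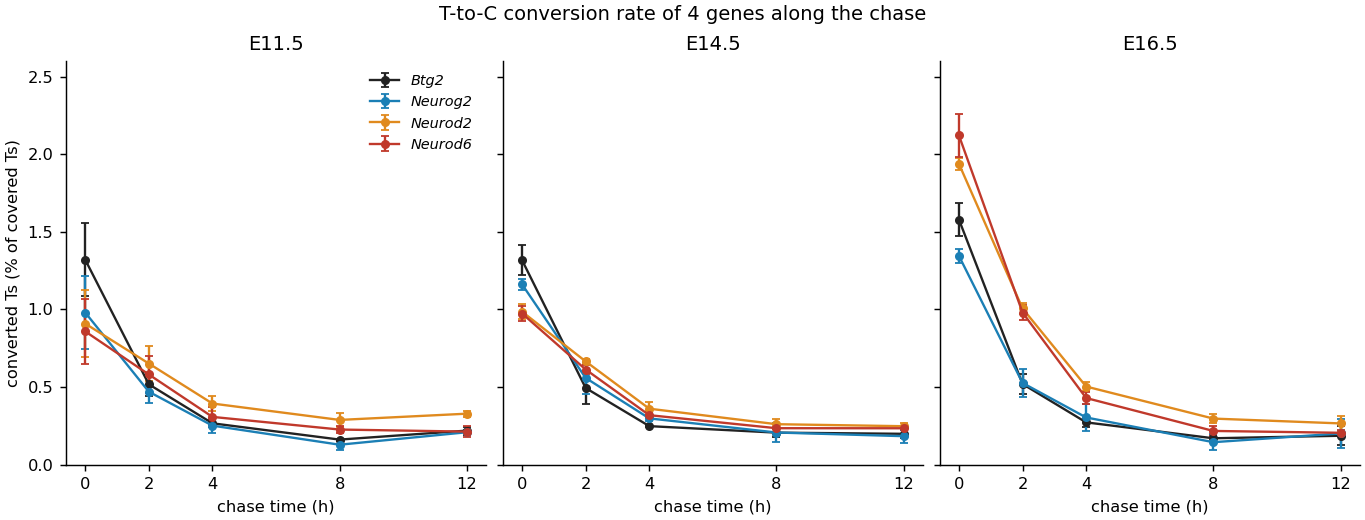
Conversion rate (y axis, converted Ts as percent of covered Ts) against hours of chase (x axis) for 4 genes at each stage, as mean ± SD of 3 pools. The means of Btg2 and Neurog2 start above those of Neurod2 and Neurod6 at E11.5 and E14.5 and below them at E16.5, where Neurod6 starts at 2.12% and Neurog2 at 1.34%.

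In label content at the end of the 20 h pulse, Neurod2 and Neurod6 rose relative to the library over the stages, and the other 6 members tested were lowest at E16.5. Whole libraries at 0 h carried conversion rates of 1.01 to 1.44% at E11.5, 1.03 to 1.18% at E14.5 and 1.80 to 1.91% at E16.5, so each gene's rate was divided by that of its library. Neurod6 had rates of 0.79, 0.69 and 1.09% at E11.5, 0.98, 1.02 and 0.92% at E14.5 and 2.00, 2.27 and 2.08% at E16.5. Its ratio to the library rose from 0.72 ± 0.04 to 0.89 ± 0.02 and 1.14 ± 0.05 (n = 3), with no overlap between stages. Neurod2 went the same way, from 0.77 ± 0.08 to 0.90 ± 0.06 and 1.04 ± 0.04.

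Eomes took the opposite course at the last step. Its rates were 0.99, 0.90 and 1.40% at E11.5, 1.34, 1.32 and 1.16% at E14.5 and 0.92, 0.96 and 1.199% at E16.5. It thus had the lowest mean raw rate of the 8 genes at E16.5, 1.03 ± 0.15%, at the stage where the libraries carried the most label. The ratio was 0.92 ± 0.04, 1.16 ± 0.06 and 0.55 ± 0.07, and 2.03% of tested genes had a lower mean ratio at E16.5. Insm1 followed with 0.94 ± 0.04, 1.13 ± 0.05 and 0.67 ± 0.02, Gadd45g with 0.96 ± 0.15, 1.26 ± 0.15 and 0.66 ± 0.20, Neurog2 with 0.83 ± 0.05, 1.06 ± 0.10 and 0.72 ± 0.04, and Btg2 with 1.12 ± 0.03, 1.199 ± 0.03 and 0.85 ± 0.04. Neurod1, between the groups, had 0.89 ± 0.04, 0.87 ± 0.05 and 0.75 ± 0.01.

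**Figure D5:**
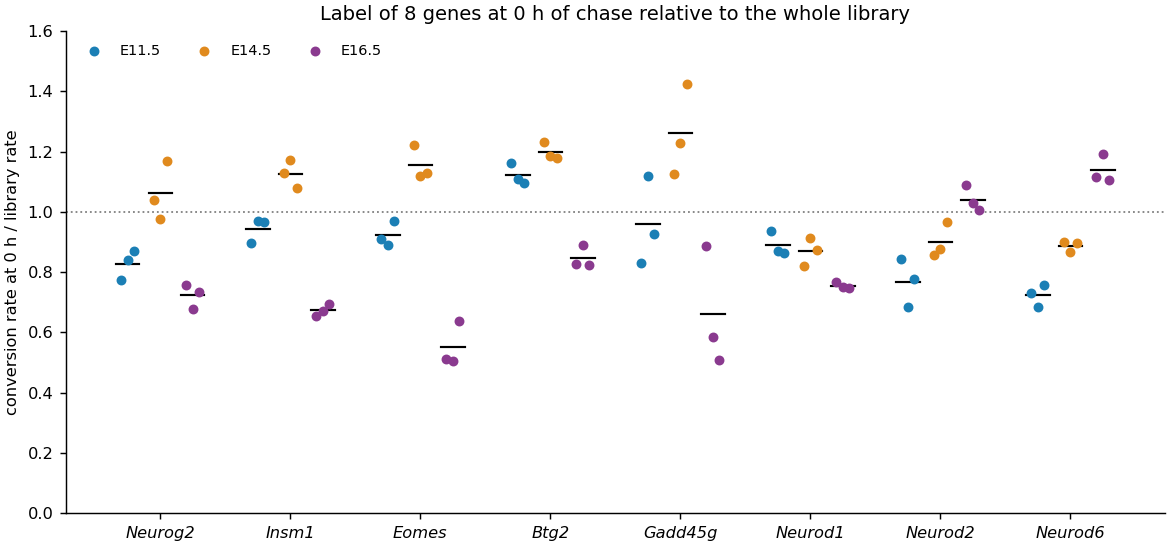
Conversion rate at 0 h divided by the rate of the whole library (y axis, from 0; the dotted line at 1 is the library) for 8 genes by stage, with 1 point per pool and black bars for means of 3 pools. The 5 genes from Neurog2 to Gadd45g fall from E14.5 to E16.5, Eomes to 0.55, whereas Neurod2 and Neurod6 are highest at E16.5, at 1.04 and 1.14.

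All 8 members tested differed between stages in this ratio (limma F-test on its log2, adjusted p = 4.3e-04 for Insm1 to 0.0485 for Neurod1), where 18.1% of 12522 genes did. From E14.5 to E16.5, 5 were called lower, against 13.8% of genes: Eomes by -1.08 ± 0.10 (log2, adjusted p = 3.0e-04), Gadd45g by -0.97 ± 0.21 (adjusted p = 0.0164), Insm1 by -0.74 ± 0.06 (adjusted p = 1.8e-04), Neurog2 by -0.55 ± 0.08 (adjusted p = 0.0037) and Btg2 by -0.50 ± 0.05 (adjusted p = 7.3e-04). One was called higher, against 3.33%, Neurod6 by 0.36 ± 0.06 (adjusted p = 0.0051), while Neurod2 stood at 0.21 ± 0.09 (adjusted p = 0.146) and Neurod1 at -0.20 ± 0.06 (adjusted p = 0.0555). The median of all genes was -0.05. Without division by the library rate the median of all genes was 0.72 and the F-test called 3 of 8 members, Neurod1, Neurod2 and Neurod6, beside 81.7% of all genes. Divided by the median rate of genes instead, 7 were called and Neurod1 was not (adjusted p = 0.0870). Some calls rested on single pools. That of Neurod1 was lost without any pool other than E14.5 pool A (adjusted p from 0.0616 to 0.158), that of Gadd45g without E11.5 pool C, any E14.5 pool or E16.5 pool B or C (from 0.0561 to 0.121), and that of Neurod2 without E11.5 pool C or any E16.5 pool (from 0.0548 to 0.0832).

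As a description, the pattern of log2(cpm + 1) over the 15 group means was compared between genes; these means share pools and library depth. Neurod1, Neurod2 and Neurod6 ran closely together (Pearson r 0.87 to 0.96), Neurog2 ran with Insm1 (r = 0.94) and Btg2 with Gadd45g (r = 0.94), and Eomes with Gadd45g (r = 0.82). Neurog2 and Eomes were related weakly (r = 0.35), and Neurog2 hardly at all to Neurod2 (r = 0.00). Of 11506 genes with at least 5 cpm, those most like Neurog2 included Nfia (r = 0.97), Grin2c, Slc3a2, Gm19503 and Slc7a3, those most like Eomes included Ikbkg (r = 0.98), Mettl1, Gm8918 and Tra2b, and those most like Neurod6 included Thy1, Adora1, Ablim1, Pcdh20 and Camk4 (Thy1 r = 0.996).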

How the data were processed

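SLAM-seq of WT mouse cortical cells was deposited as 9 tables of 53491 genes, 1 per stage and pool. Per the methods, alignment to mm10 and T-to-C counting by the authors used SlamDunk v0.4.3, with exons of GENCODE vM24 summed per gene; how reads with several alignments were handled is not given in the sources used here. The deposited values used were covered-T counts (T positions under reads, not normalized, 228.7 M to 629.1 M per library), the conversion rate as a fraction (converted over covered Ts, given here in percent) and cpm, whose denominator exceeded the reads tabulated. In each library 100% of cpm values were whole multiples of 1 read (tolerance 0.01 reads), so whole reads were recovered. One read adds a count for each T it covers, so counts exceed molecules; intervals cover no PCR duplicates. The deposited half-lives were not used as results; refits matched them within 1% for 100% of 100182 values.

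Expression was tested with edgeR 4.0.16 (TMM, quasi-likelihood, more than 10 counts in every library, R 4.3.3) on all genes, half-lives and log2 label ratios with limma 3.58.1, and DESeq2 1.42.0 served as an alternative; p-values were Benjamini-Hochberg adjusted. Half-lives were ln(2)/k from least-squares fits of exp(-kx) to rates over the 0 h rate (covered Ts over 500, R2 over 0.6, under 24 h, in all 3 pools). Scripts were tested on simulated data. Within a stage, letters mark 1 pool over 5 wells, and deviations of wells of a pool correlated at -0.01 to 0.82, so the block fit is given beside chase results; across stages letters mark different embryos (-0.18 to 0.21). Annotation came from GENCODE release 21 on GRCm38. The members and lists were chosen with earlier results of these data known. Named genes beyond the members are, per list and stage comparison, up to 3 called with the largest change and no overlap of pools, and the 5 nearest patterns of Neurog2, Eomes and Neurod6. Some genes that this rule names are not reported here. Alternatives covered the normalization, filter, test, pseudocount (1 and 0.1), block, time of the libraries, curve, background and omission of each pool.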

Additional observations from a re-analysis of the deposited data

Results flagged for a closer look

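The change in level from 0 h to 12 h of chase differed between stages for 3 members by the interaction test over 45 libraries (edgeR), which is why they are listed here. For Neurog2 (adjusted p = 2.0e-07) the level at 12 h was 47.8% of that at 0 h at E16.5, against 87.1% at E11.5 and 95.5% at E14.5. For Neurod1 (adjusted p = 0.0094) these shares were 126.7% at E14.5, 105.7% at E16.5 and 68.0% at E11.5. For Insm1 (adjusted p = 0.0194) they were 107.2%, 87.7% and 66.1% in stage order. These shares are of cpm, whereas the test used TMM factors. On log2(cpm + 1) the median of all genes at E11.5 was -0.15, so shares there run lower than the tested changes. With TMM the E11.5 log2 changes were -0.00 for Neurog2, -0.35 for Neurod1 and 0.27 for Insm1.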

How the results depend on the processing

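With the pool as a replicate block the members called numbered 2, 2 and 3 at 2 h (E11.5, E14.5 and E16.5), 4, 4 and 5 at 12 h, and 6 for the interaction; the letter as a block left the stage counts as they were, left 0 half-life calls and gave 5 label calls, without Gadd45g (adjusted p = 0.0903), Neurod1 (0.115) and Neurod2 (0.0513). Requiring more than 100 covered Ts gave 3 calls for E16.5 against E11.5, since Neurog1 was not tested and Gadd45g moved just inside the fold limit. Limma on log2(cpm + 1) gave 4 at 12 h at E11.5. Half-lives gave 2 calls in unscaled hours, 1 as log2 values and 1 with R2 over 0.8, and undivided label rates gave 3; the cause was not tested. Omitting 1 pool at a time gave 1 to 3 calls at 12 h at E11.5, 1 to 2 at E14.5, 1 to 4 at E16.5, 2 to 3 for the interaction, 0 to 1 for half-lives and 5 to 7 for label. Directions reversed with the 12 h libraries for Insm1, E16.5 against E11.5 (-0.78), Btg2, E14.5 against E11.5 (0.11), and Neurod6, E16.5 against E14.5 (0.19). Of 1458 member values under alternatives, 15 others changed sign below the threshold. On log2(cpm + 1) the calls at 2 h split into 192 higher and 215 lower (330 and 217 with TMM) at E11.5, 149 and 633 (289 and 387) at E14.5 and 139 and 203 (310 and 199) at E16.5. The planned background percentile was 0 in every pool and so changed nothing. Depth limits Neurog1, at 0 to 11 reads per well at E16.5.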
